A study of Mus musculus with 27 samples.

Results

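KK/HlJ lung was represented by 3 of the 27 arrays of the study, all 3 of the strain KK/HlJ by the labels, and was set against the mean of the strain means of the other 8 strains over 20239 genes. KK/HlJ is an inbred laboratory strain; KK mice are known as a model of obesity and type 2 diabetes. The study took the right lung of female mice at 11 weeks of age and measured RNA on Mouse Gene 1.0 ST arrays, with 3 mice per strain and no treatment named in the labels. The strains carry labels for spontaneous pulmonary adenoma, a benign tumour of the lung epithelium. KK/HlJ and MRL/MpJ are labelled as decreased in severity and in frequency, A/J, C57BL/6J and DBA/2J as increased in both, and C57L/J, C3H/HeJ, BALB/cJ and 129S1/SvlmJ as increased in severity with decreased frequency. The question was which genes set the KK/HlJ lung apart from the others.

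Inbred strains differ at fixed sites throughout the genome, so a gene can be read at a stable low or high level in every mouse of a strain. The lung holds alveolar epithelium that makes surfactant and exchanges gas, airway epithelium with secretory club cells, resident alveolar macrophages that clear particles and surfactant, a dense capillary endothelium, and megakaryocytes that shed platelets. The MHC region, the tripartite motif (Trim) genes and the interferon-inducible gene families are known to vary in copy and sequence between mouse strains. A probe set reads both the amount of a transcript and how well the probes match its sequence, and these were not separated here.

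All values are log2 signal, so a difference of 1 is a change of 2-fold. The arrays carried lung transcripts: in KK/HlJ the surfactant gene Sftpc stood at 13.12 ± 0.13, the club cell secretoglobin Scgb1a1 at 12.76 ± 0.06 and the alveolar type I receptor Ager at 11.68 ± 0.17 (SD, n = 3). The 3 KK/HlJ arrays correlated with each other at 0.9895 to 0.9927. Genes of the Y chromosome, which female mice lack, read a median of 3.05 and at most 3.93 apart from Sry, and served as the level of background. Of the other strains' arrays, C3H/HeJ replicate 2 carried muscle and fat transcripts: its mean over 12 skeletal muscle genes was 9.27, against 4.87 to 5.04 in KK/HlJ. The KK/HlJ arrays hold the 3 lowest array numbers. Whether these numbers give a run order is not stated, and any such order could not be told apart from strain. With 27 arrays, 3 to a strain, the number of arrays limits the precision.

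KK/HlJ replicate 3 stood apart from the other KK/HlJ arrays through transcripts of liver. It read 25 genes more than 2 log2 units above both other KK/HlJ arrays, where replicates 1 and 2 each read 0 genes so. The mean over 30 hepatocyte genes, a list added after the values were seen, was 4.63, 4.43 and 7.11 in replicates 1 to 3. In the other 24 arrays it ran from 4.14 through a median of 4.59 to 5.52, with A/J replicate 1 the highest. Results that rest on replicate 3 are given with and without it below.

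**Figure D1:**
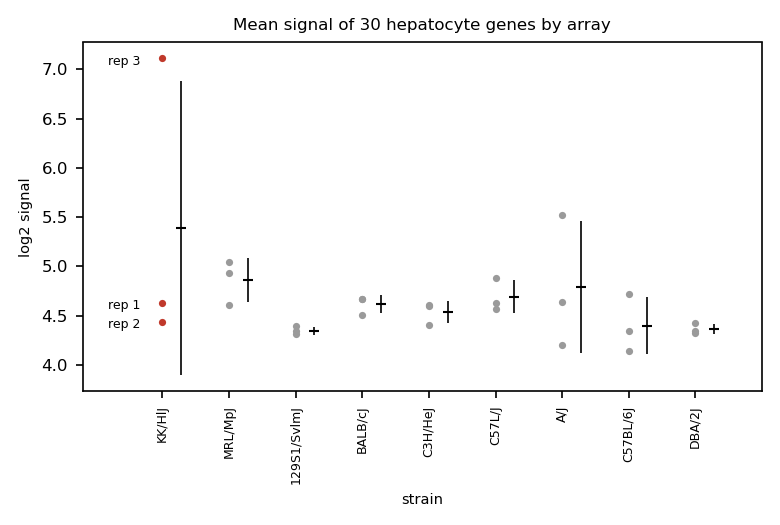
Mean log2 signal over 30 hepatocyte genes on each array, by strain, with KK/HlJ in red, the other strains in grey, and the mean and SD of the 3 arrays as a bar beside them. KK/HlJ replicate 3 stands at 7.11, replicates 1 and 2 at 4.63 and 4.43, and the highest other array at 5.52.

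In KK/HlJ lung, 61 genes were higher and 31 lower than in the mean of the other strains, at a limma Benjamini-Hochberg adjusted p under 0.05 and a log2 difference of at least 1. These are 0.301% and 0.153% of the genes tested. The higher genes were led by the protease inhibitor gene Spink5, the Trim gene Trim12a, the uncharacterised BC018473, the histone variant gene H2az1 and the Wnt inhibitor gene Wif1. The lower genes were led by the MHC genes H2-Ea and H2-T22 and the bicarbonate transporter gene Slc4a5. The median difference was 1.39 among the higher and -1.51 among the lower calls. With no minimum difference, 921 genes (4.55%) were higher and 573 (2.83%) lower, 7.38% together.

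All 61 higher and 31 lower calls were kept when C3H/HeJ replicate 2 was left out, 2 were gained, and no called gene moved by more than 0.0803. Without KK/HlJ replicate 3, 50 of the higher and 28 of the lower calls remained, 14 were lost and 19 gained. The lost higher calls included 6 genes of liver metabolism, picked here after their values were seen: Uox, which encodes urate oxidase, Sult2a8, Cyp2c29, Keg1, Fbp1 and Gstm3. Uox read 3.79, 3.99 and 7.61 in the 3 KK/HlJ arrays, against 2.79 to 4.35 in the other 24. Its difference was 1.45 with all arrays and 0.21 without replicate 3 (limma adjusted p = 0.0358 and 0.632).

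**Figure D2:**
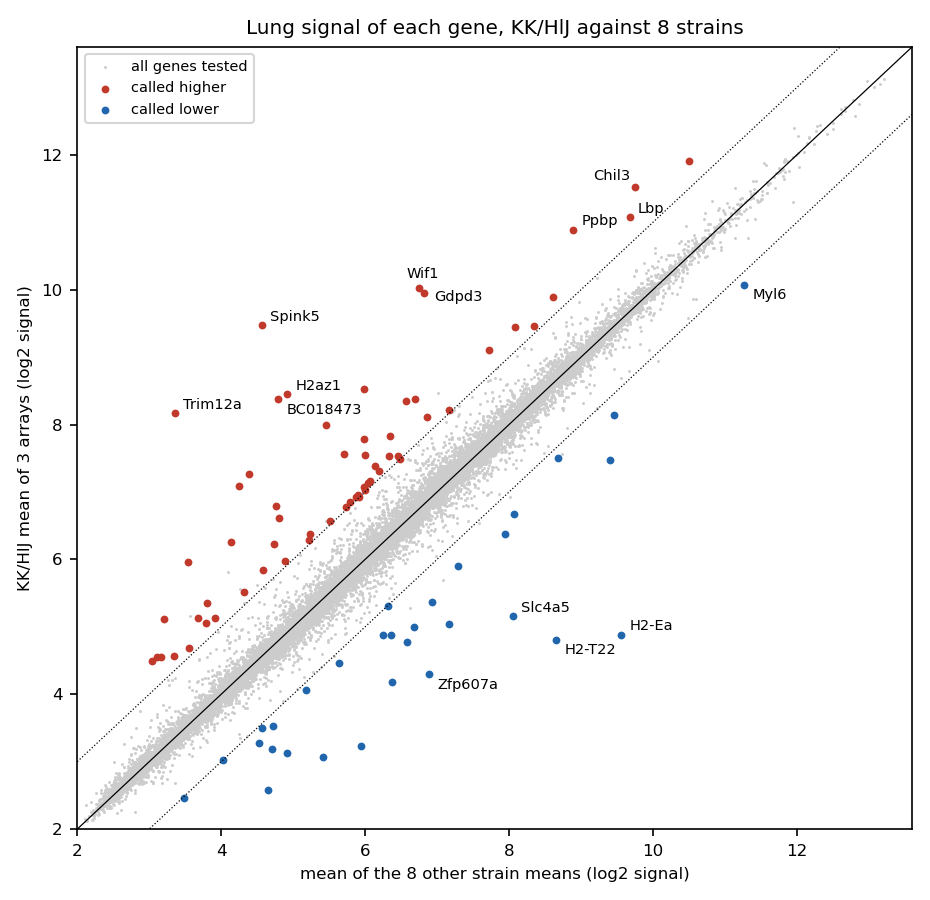
KK/HlJ mean against the mean of the other 8 strain means for each gene, both in log2 signal; red and blue points are the 61 higher and 31 lower calls, the solid line marks equal signal and the dotted lines a difference of 1. Spink5 and Trim12a lie farthest above the line, and H2-Ea and H2-T22 farthest below it.

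The 3 KK/HlJ arrays lay above all 24 other arrays for 147 genes (0.726% of those tested) and below all of them for 103 (0.509%). Among the calls this held for 25 of the 61 higher and 19 of the 31 lower genes. For 12 of the higher calls the mean of the other strains was at or below 3.93, the top of the Y-linked range, and for 10 of the lower calls the KK/HlJ mean was. The 12 include Uox, Sult2a8, Cyp2c29 and Keg1, which were not called without KK/HlJ replicate 3.

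A gene can be called because KK/HlJ stands alone or because it shares a level with a few strains. KK/HlJ differed by at least 1 from each of the 8 strains separately, in the same direction and at an adjusted p under 0.05, in 16 genes (0.0791% of genes tested). In 9 of them KK/HlJ was above every strain (0.0445% of genes tested) and in 7 below (0.0346%). The largest of the higher differences was in Spink5, which encodes a serine protease inhibitor of stratified epithelia whose loss causes a skin barrier disease. Spink5 read 9.57, 9.46 and 9.39 in KK/HlJ, and 3.90, 4.14 and 6.16 as the lowest, median and highest of the other 24 arrays. The KK/HlJ arrays lay clear above all others, and the highest other strain mean was 5.88 in A/J. The difference was 4.91 (SE 0.12, adjusted p = 1.11e-18), a 30.1-fold higher signal.

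Wif1, a secreted protein that binds Wnt ligands and blocks their signal, read 10.06, 10.04 and 9.96 in KK/HlJ against 5.89, 6.85 and 7.45 in the others. The groups did not overlap, and the strain next to KK/HlJ was A/J at 7.24. The difference was 3.27 (SE 0.09, adjusted p = 4.90e-18). Hepacam, an adhesion molecule of glia and liver cells, read 8.03, 8.16 and 7.79 against 4.85, 5.31 and 6.79, a difference of 2.54. MRL/MpJ, the other strain labelled as decreased in both measures, came next at 6.72 and the remaining 7 strains lay at 4.96 to 5.48. M1ap, a gene named for its role in meiosis, read 8.05, 8.52 and 9.01 against 5.04, 5.98 and 7.18. Its spread among the KK/HlJ arrays was wide, but all 3 stood above the other arrays.

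The innate immune genes of this set were Nlrp1a and Lbp. Nlrp1a encodes an inflammasome sensor with close paralogs, whose signals may not be fully separated by the probes. It read 6.45, 6.12 and 6.19 in KK/HlJ against 3.65, 4.12 and 4.66, a difference of 2.12 (SE 0.10, adjusted p = 1.88e-13). Lbp, which carries bacterial lipopolysaccharide to its receptor, read 11.14, 10.97 and 11.13 against 9.39, 9.68 and 10.04. The other 8 strain means of Lbp lay within 9.40 to 9.85, and KK/HlJ stood 1.41 above their mean. The sugar-phosphate transporter gene Slc37a1 was as even, at 9.46, 9.46 and 9.43 against 7.71, 8.09 and 8.34 (difference 1.37, SE 0.06).

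The vomeronasal receptor gene Vmn2r96 (difference 1.90) and the immunoglobulin segment Ighv1-67 (1.56) complete the higher genes. Ighv1-67 read 4.33, 6.47 and 5.28 in KK/HlJ, and its lowest KK/HlJ array was level with the highest of the others, 4.33, to 2 decimals.

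Of the 7 genes below every strain, Slc4a5, which encodes an electrogenic sodium bicarbonate cotransporter, had the largest difference. It read 5.44, 4.92 and 5.11 in KK/HlJ and 7.70, 8.08 and 8.38 as the lowest, median and highest of the others. The 8 other strain means lay within 7.80 to 8.20. KK/HlJ was 2.90 lower (SE 0.08, adjusted p = 2.85e-18), a 7.45-fold lower signal. Gabra3, a subunit of the GABA-A receptor, read 4.44, 4.03 and 4.08 against 5.83, 6.32 and 7.23. Both genes separated the KK/HlJ arrays from all others with a gap.

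Ldhb, the heart-type subunit of lactate dehydrogenase, read 6.49, 6.79 and 6.74 in KK/HlJ against 7.61, 8.08 and 8.78, a difference of -1.40 (SE 0.16, adjusted p = 1.69e-06). Myl6, the essential light chain of smooth muscle and non-muscle myosin, is read strongly in every strain, at 10.12, 10.08 and 10.02 in KK/HlJ and 10.88, 11.32 and 11.58 elsewhere. Iyd, which recycles iodide from iodotyrosines, read 4.66, 4.90 and 5.08 against 5.94, 6.16 and 6.69. The KK/HlJ arrays were the lowest 3 in each of these genes. The zinc finger genes Zfp607a (difference -2.59) and Zfp931 (-2.07) complete the set; the KK/HlJ array nearest the others read 3.39 for Zfp931, beside 3.40 in the lowest other array.

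**Figure D3:**
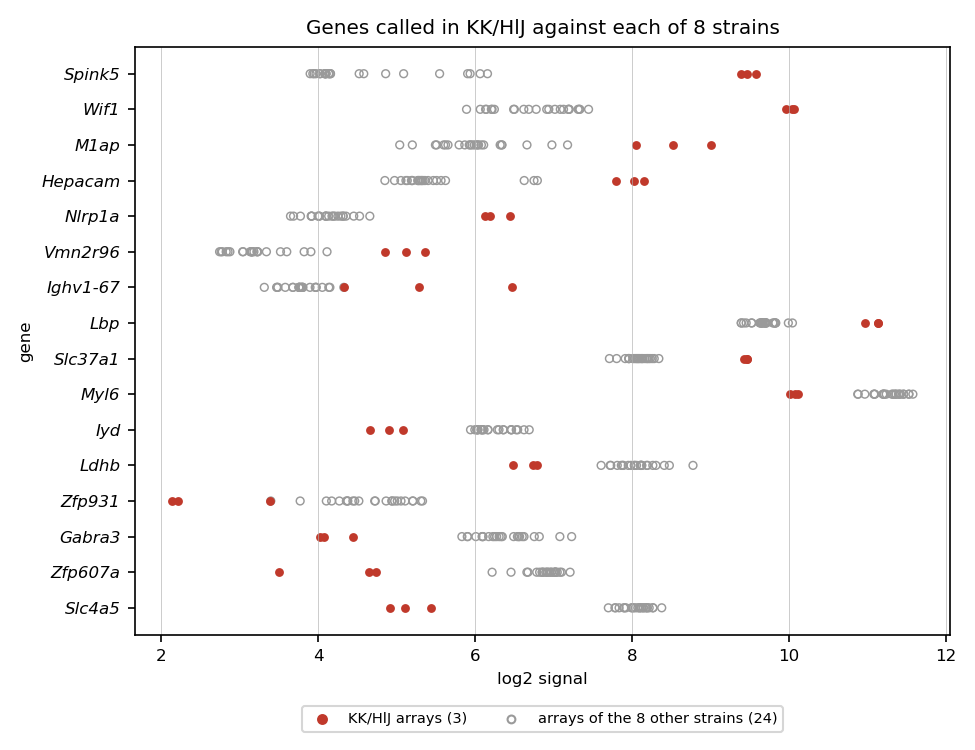
Log2 signal on each array of the 16 genes in which KK/HlJ differed from each of the 8 other strains; filled red points are the 3 KK/HlJ arrays and open grey points the 24 others. In 9 genes the red points lie to the right of the grey ones and in 7 to the left, with Ighv1-67 and Zfp931 touching.

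The p-values above take the mouse as the unit and so measure the spread between mice of a strain. With the strain as the unit, the KK/HlJ mean was set against the spread of the 8 other strain means. This called 16 genes higher and 8 lower, and it does not see the spread among the KK/HlJ arrays. The 16 higher include the liver genes Cyp2c29, Sult2a8, Keg1 and Uox, and also Rgn (difference 1.30). None of them was called by strain without KK/HlJ replicate 3. Of the 16 genes that differed from each strain, 15 were called with the strain as the unit. When KK/HlJ replicate 3 was also left out, 14 were called. These genes were chosen for standing apart from every other strain mean, which favours such a call, so the counts are not separate support. Hepacam was not called with either set of arrays (adjusted p = 0.102 and 0.0888), and M1ap lost the call without replicate 3 (0.033 and 0.0722). Slc4a5 had the smallest adjusted p with the strain as the unit, 6.8e-05. Of 202 genes followed over the alternatives, all with an adjusted p under 0.05 with the mouse as the unit, 179 lost that threshold with the strain as the unit. They include most of the gene list members named below.

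Of the other called genes, Cyp2c29, Sult2a8, Uox and Iglv2 also had no strain mean within 1 log2 unit of KK/HlJ, and the first 3 were not called without KK/HlJ replicate 3. The rest lay within 1 log2 unit of at least 1 strain mean, which is not always the same level. In Gdpd2, for one, the KK/HlJ arrays read at most 5.95 and all other arrays at least 6.52. The KK/HlJ level lay within 1 log2 unit of the C57BL/6J mean in 31 of the 92 called genes, of the 129S1/SvlmJ mean in 30, of the MRL/MpJ mean in 25, and of the A/J mean in 13, the fewest. Set against single strains, KK/HlJ had the fewest calls in either direction against MRL/MpJ, 135 (0.667% of genes tested). It had 151 against BALB/cJ (0.746%), 155 against C3H/HeJ (0.766%), 158 against DBA/2J (0.781%) and 161 against 129S1/SvlmJ (0.795%). The most were 163 against C57BL/6J (0.805%), 173 against A/J (0.855%) and 199 against C57L/J (0.983%).

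C57BL/6J shared the high level of Trim12a, H2az1, Nxpe4 and Trim30d, and no other strain came within 1 log2 unit in these. Trim12a, related to the antiviral gene Trim5, read 7.94, 8.17 and 8.41 in KK/HlJ. C57BL/6J stood at 8.57 and the remaining 7 strains at 2.52 to 2.87, below the Y-linked median of 3.05. Nxpe4 followed the same order, at 7.09 ± 0.20 in KK/HlJ (SD, n = 3), 7.32 in C57BL/6J and 3.60 to 3.99 in the rest. H2az1 read 8.45 ± 0.24 in KK/HlJ, 8.80 in C57BL/6J and 3.62 to 5.07 in the others. Rps6 and Rpl29, which encode ribosomal proteins needed by every cell, were called higher by 2.04 and 1.81. Their median in the other arrays was only 4.34 and 4.56, beside at most 3.93 for the Y-linked genes apart from Sry; transcript amount and probe match were not separated.

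129S1/SvlmJ shared the high level of BC018473, at 8.55 beside 8.37 ± 0.29 in KK/HlJ (SD, n = 3), with 4.12 to 4.34 in the rest. Gdpd3, a phosphodiesterase of lysophospholipids, was high in KK/HlJ (9.96 ± 0.20), 129S1/SvlmJ (10.29) and C57L/J (9.40), and 5.45 to 5.97 in the other strains. Nell1, a secreted protein known from bone growth, was shared with C57L/J alone, 7.27 ± 0.29 in KK/HlJ and 7.46 in C57L/J against 3.78 to 4.14.

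**Figure D4:**
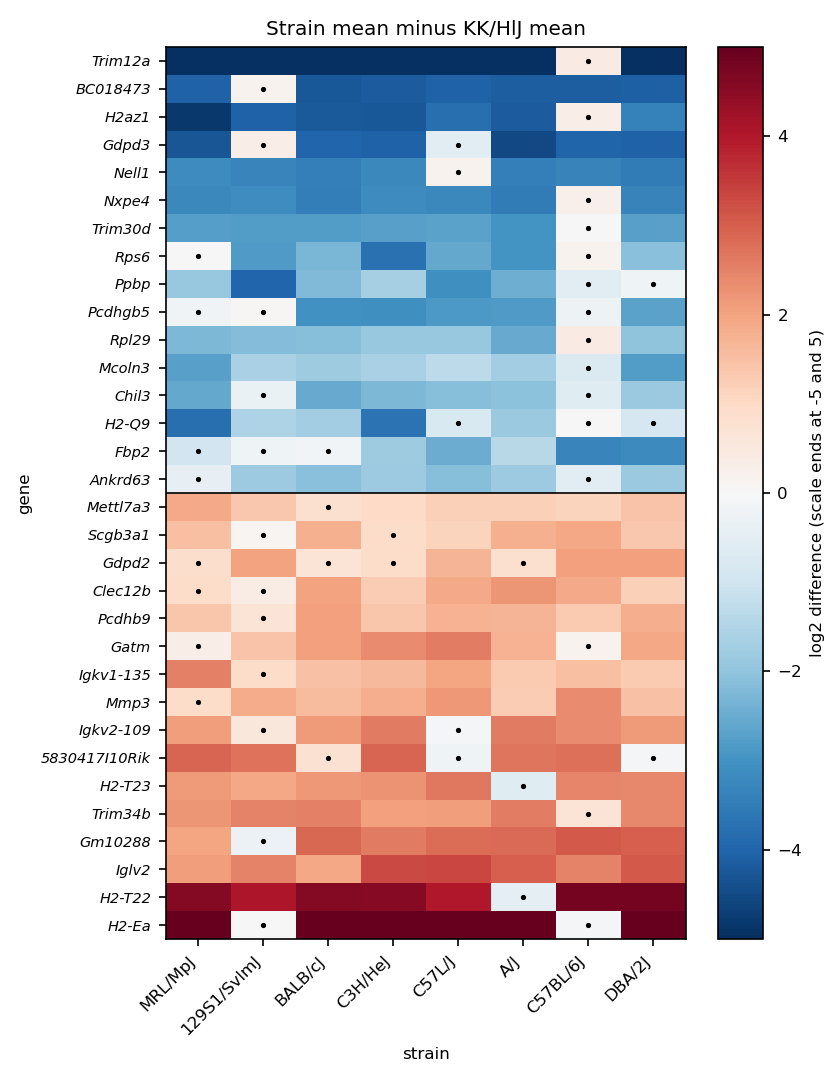
Strain mean minus KK/HlJ mean in log2 units for the 16 higher and 16 lower calls with the largest difference that did not differ from every strain; colours run from blue, strain below KK/HlJ, to red, strain above it, and end at -5 and 5. Dots mark strains within 1 log2 unit of KK/HlJ, such as C57BL/6J for Trim12a, 129S1/SvlmJ for BC018473 and A/J for H2-T22.

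In the MHC, KK/HlJ combined low and high genes. Of 23 MHC class I genes measured, 9 rose and 3 fell at an adjusted p under 0.05, beside 4.55% and 2.83% of all genes. The median difference was 0.16, beside 0.0096 over all genes. H2-T22, a non-classical class I gene recognised by gamma-delta T cells, read 4.79, 4.93 and 4.71 in KK/HlJ. A/J was as low, at 4.30, and the other 7 strains stood at 8.80 to 9.59. Its neighbour H2-T23, which encodes Qa-1, was also low in these strains alone, at 7.48 ± 0.36 in KK/HlJ (SD, n = 3) and 6.86 in A/J against 9.41 to 10.10. H2-T24 fell by 0.41.

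The Qa-2 genes H2-Q9 and H2-Q6 rose by 1.78 and 1.28, and H2-T10 by 1.10. For both Qa-2 genes KK/HlJ lay within 1 log2 unit of C57BL/6J, C57L/J and DBA/2J, and for H2-Q6 of BALB/cJ too. C3H/HeJ and MRL/MpJ were the lowest in both, at 4.03 to 5.31 for H2-Q9. For H2-T10, 129S1/SvlmJ, C3H/HeJ and A/J lay within 1 log2 unit. Its difference without KK/HlJ replicate 3 was 0.89 (limma adjusted p = 0.0042), below the minimum of 1. The classical genes H2-K1 and H2-D1 rose by 0.49 and 0.47, below the minimum of 1. H2-Q and H2-T genes are near-identical copies, so their probe sets may share signal. Without KK/HlJ replicate 3, 6 class I genes rose and 3 fell.

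In class II, 1 of 12 genes fell and 2 rose, beside 2.83% and 4.55% of all genes; the fall is H2-Ea alone, and neither rise was called without KK/HlJ replicate 3. H2-Ea, the alpha chain of the I-E molecule, read 4.96, 5.16 and 4.53 in KK/HlJ, level with 4.79 in C57BL/6J and 4.90 in 129S1/SvlmJ. In the remaining 6 strains it stood at 10.92 to 11.42. The difference from the mean of the others, -4.67, therefore mixes strains with and without the signal. H2-Ob and H2-Ab1 rose by 0.46 and 0.35. Without KK/HlJ replicate 3, 0 class II genes rose (adjusted p = 0.0579 and 0.403). H2-Ob was not called without replicate 2 either (0.07), nor H2-Ab1 without replicate 1 (0.113) or without any of 16 arrays of other strains left out singly, with adjusted p-values of 0.0514 to 0.0575.

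Platelet transcripts were higher in KK/HlJ lung than in the other strains. Of 12 platelet and megakaryocyte genes measured, 9 rose and 0 fell, with a median difference of 0.58; over all genes tested 4.55% rose, 2.83% fell and the median was 0.0096. The mean over the 12 genes was 7.75, 7.68 and 7.86 in the KK/HlJ arrays. All 3 stood above the 24 others, which ran from 6.38 through a median of 7.13 to 7.62, with DBA/2J replicate 3 the highest. Without KK/HlJ replicate 3 the count was 7 of 12, and without C3H/HeJ replicate 2 it was 9 of 12.

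Ppbp, the precursor of a neutrophil-attracting chemokine stored in platelet granules, read 10.83, 10.69 and 11.15 in KK/HlJ. The other arrays ran from 6.11 through 9.00 to 11.05, so the groups overlapped, through DBA/2J replicate 3. The difference was 2.00 (SE 0.33, adjusted p = 0.000219). Its chromosomal neighbour Pf4, platelet factor 4, read 6.90, 6.68 and 7.19 against 4.75, 6.03 and 6.81 and differed by 1.01 (SE 0.20, adjusted p = 0.00152). Without KK/HlJ replicate 3 the difference in Pf4 was 0.87 (adjusted p = 0.0276), below the minimum of 1.

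Tubb1, the beta tubulin of platelets, read 9.08, 9.02 and 9.23 against 6.26, 7.72 and 8.91, with no overlap and a difference of 1.39 (SE 0.14, adjusted p = 4.47e-07). Itga2b, the alpha chain of the fibrinogen receptor, and Vwf, von Willebrand factor, which endothelium also makes, rose by 0.78 and 0.60 and did not overlap the other arrays either. Clec1b, a receptor for podoplanin, rose by 0.79. The smaller rises were in Gp9 (0.56), Itgb3 (0.31) and Gp5 (0.26). Other arrays overlapped KK/HlJ in Gp9 and Gp5, such as C3H/HeJ replicate 2 (7.64) and DBA/2J replicate 3 (6.76) respectively. Gp1bb (0.28), Selp (0.13) and Treml1 (0.0045) were not called. The strain order of the list mean placed C57BL/6J (7.49 ± 0.16) and DBA/2J (7.48 ± 0.13) next below KK/HlJ (7.76 ± 0.09, SD, n = 3 each), and 129S1/SvlmJ (6.59 ± 0.22) last. Of the 8 erythroid genes measured, 0 rose and 0 fell, and their mean level in KK/HlJ, 5.47 to 5.62, lay inside the 5.27 to 6.26 of the other arrays. In whole lung, more cells of a type and more RNA per cell cannot be told apart. With the strain as the unit none of the platelet genes named here was called.

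The promoters of the neighbours Ppbp and Pf4 and of Tubb1 and Clec1b are shown because these genes rose together. Each window runs from 250 bases before to 50 after a start site, 5′ to 3′ on the gene's strand, from RefSeq on GRCm38.p6, the reference strain's sequence and not that of KK/HlJ. Capitals mark the letters AGATAA, as bound by GATA factors, and AGGAAG, as bound by ETS factors, on either strand; the motifs do not overlap here.
Ppbp (chr5:90768268-90768567, plus strand): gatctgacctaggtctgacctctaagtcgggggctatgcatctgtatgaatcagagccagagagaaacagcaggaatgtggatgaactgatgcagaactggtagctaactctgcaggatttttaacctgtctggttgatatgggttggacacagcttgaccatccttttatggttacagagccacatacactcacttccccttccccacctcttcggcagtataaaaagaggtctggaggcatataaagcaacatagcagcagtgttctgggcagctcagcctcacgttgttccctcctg
Pf4 (chr5:90772185-90772484, plus strand): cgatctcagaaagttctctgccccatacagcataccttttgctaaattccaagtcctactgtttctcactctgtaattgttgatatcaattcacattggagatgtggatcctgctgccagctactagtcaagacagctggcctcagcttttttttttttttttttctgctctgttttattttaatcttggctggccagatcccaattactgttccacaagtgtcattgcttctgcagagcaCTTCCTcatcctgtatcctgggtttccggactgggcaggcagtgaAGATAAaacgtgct
Tubb1 (chr2:174450345-174450644, plus strand): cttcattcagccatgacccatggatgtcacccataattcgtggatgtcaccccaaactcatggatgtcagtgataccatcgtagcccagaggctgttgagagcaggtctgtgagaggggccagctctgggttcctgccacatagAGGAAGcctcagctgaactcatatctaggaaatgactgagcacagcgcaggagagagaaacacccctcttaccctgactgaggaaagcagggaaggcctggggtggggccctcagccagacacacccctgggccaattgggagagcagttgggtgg
Clec1b (chr6:129397047-129397346, plus strand): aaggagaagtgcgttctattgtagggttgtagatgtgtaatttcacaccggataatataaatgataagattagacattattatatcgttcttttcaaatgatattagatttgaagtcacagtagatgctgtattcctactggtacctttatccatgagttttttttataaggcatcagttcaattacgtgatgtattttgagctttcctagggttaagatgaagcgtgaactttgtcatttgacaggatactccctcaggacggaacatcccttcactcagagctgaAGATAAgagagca

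Of the 12 platelet genes, 10 had a window in the table, and 7 of these were among the 9 that rose. AGATAA or its reverse complement was in 3 of the 7 and AGGAAG or its reverse complement in 5 of the 7. Over all 32851 promoter windows the shares were 11.2% and 35.4%. Pf4 holds both, Clec1b the GATA letters, Tubb1 the ETS letters and Ppbp neither. Among the genes with a window that did not rise, Gp1bb and Selp also hold the ETS letters and Treml1 holds neither. A match describes letters and not binding.

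**Figure D5:**
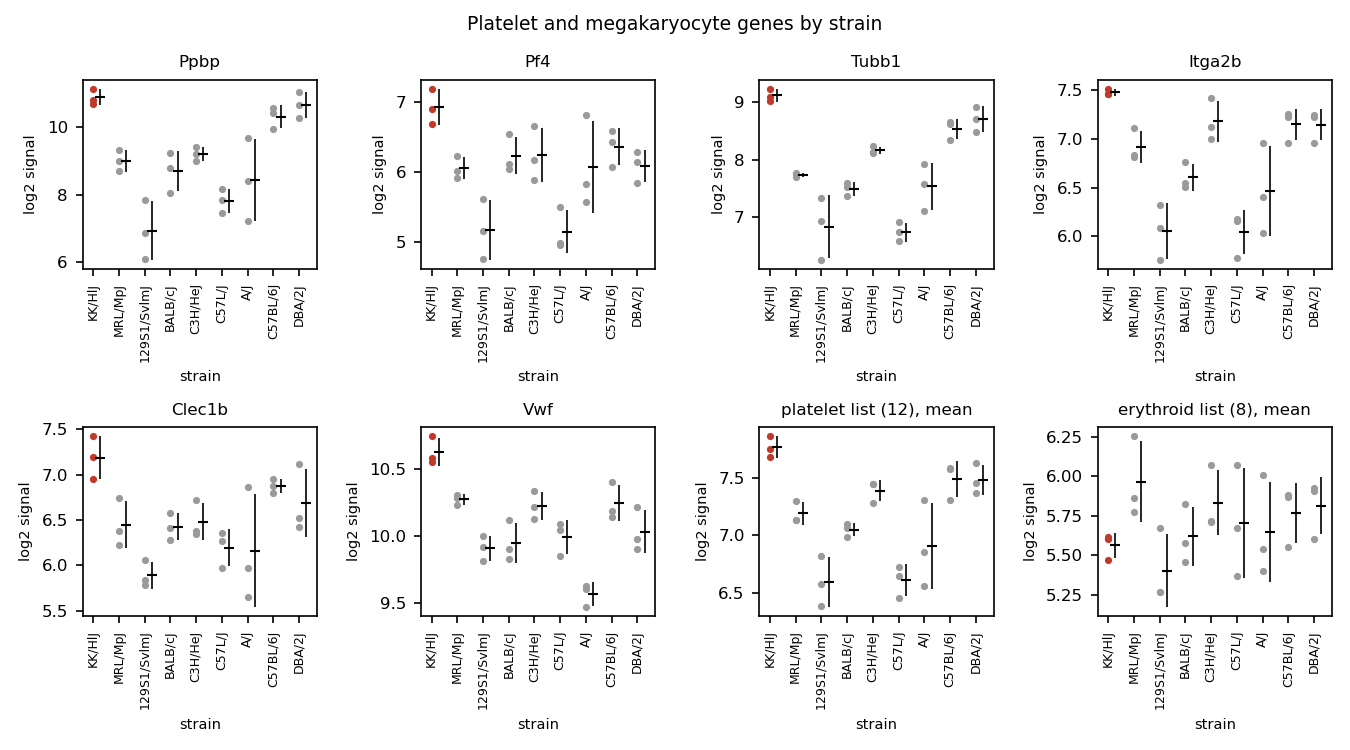
Log2 signal by strain of 6 platelet genes and the mean signal of the 12 platelet and 8 erythroid genes; points are arrays, KK/HlJ in red, with the mean and SD of the 3 arrays as a bar. The 6 genes are list members chosen by smallest p. KK/HlJ is the highest strain in each of their panels and in the list mean, at 7.68 to 7.86. It lies inside the range of the others for the erythroid list.

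Alveolar macrophage genes rose in part. Of 15 measured, 6 rose and 0 fell (median difference 0.19), and 5 rose without KK/HlJ replicate 3 or without C3H/HeJ replicate 2. Over all 20239 genes, 4.55% rose and 2.83% fell, and without KK/HlJ replicate 3 867 genes rose and 441 fell. The list counts below are to be read beside these shares. Chil3, a chitinase-like lectin abundant in these cells, read 11.56, 11.37 and 11.65 against 8.37, 9.39 and 11.41 and differed by 1.78 (SE 0.15, adjusted p = 1.19e-08). Its KK/HlJ arrays were overlapped by 129S1/SvlmJ replicate 3 alone; the mean of that strain was 11.20. The scavenger receptor gene Marco rose by 0.92, Siglecf by 0.58, the proton pump subunit gene Atp6v0d2 by 0.54 and the mannose receptor gene Mrc1 by 0.41, the last not called without KK/HlJ replicate 2 (0.32, adjusted p = 0.101). The list mean, 8.28 to 8.34, lay inside the 7.44 to 8.70 of the other arrays, of which C3H/HeJ replicate 2 was the highest. By strain, C3H/HeJ (8.45) and A/J (8.36) stood above KK/HlJ (8.32).

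Of 9 chitinase family genes, 4 rose and 0 fell, beside 4.55% and 2.83% of all genes, and 2 rose without KK/HlJ replicate 3. Chil1, the mouse homologue of the human lectin YKL-40, read 11.91, 11.97 and 11.84 against 8.76, 10.78 and 11.83, with C57BL/6J next at 11.79. C3H/HeJ, A/J and BALB/cJ also lay within 1 log2 unit of KK/HlJ, so the low strains set the difference. Cd68, a lysosomal membrane protein of macrophages, rose by 0.73 with all 3 arrays above the others. Among 16 lysosomal genes, 4 rose and 1 fell: the cation channel gene Mcoln3 by 1.79 (7.67, 8.11 and 7.56 against 4.80, 6.06 and 7.08), Gpnmb by 0.98 and the protease gene Ctsk by 0.97, while the related channel gene Mcoln2 fell by 0.43. Mcoln2 was not called without KK/HlJ replicate 2 (adjusted p = 0.0628) or 3 (0.0572).

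Of 14 alveolar type II genes, 5 rose and 0 fell, beside 4.55% and 2.83% of all genes. The median was 0.18, and 4 rose without KK/HlJ replicate 3. The rise was led by the aspartic protease gene Napsa, which processes surfactant protein B, by 0.52 and by Sftpb itself by 0.44. Napsa read 10.37, 10.39 and 10.42 and Sftpb 12.47, 12.31 and 12.43, above all other arrays, whose highest values were 10.34 and 12.29. Of 11 club cell genes, 0 rose and 3 fell (median -0.22). Scgb3a1, an airway secretoglobin, read 9.06, 7.95 and 7.43 against 7.45, 9.63 and 10.17 and fell by 1.31 (SE 0.26, adjusted p = 0.00154); without replicate 3 the difference was -0.95 (adjusted p = 0.0472). Gabrp fell by 0.63 and Cyp2f2, the club cell cytochrome P450, by 0.22.

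Among 23 serine protease inhibitor and related genes, 4 rose, Spink5 among them, and 1 fell, beside 4.55% and 2.83% of all genes. Slpi, an inhibitor of neutrophil elastase, rose by 0.65 and Wfdc2, of the same protein family, fell by 0.90. Of 22 complement genes, 6 rose and 2 fell. Cd59a, which blocks the membrane attack complex, read 8.08, 8.09 and 8.17 against 6.26, 6.87 and 7.93. Hc, complement component C5, fell by 0.70, to 9.86 in KK/HlJ, with C57L/J (9.83) and DBA/2J (9.80) as low. The protease gene Masp1 fell by 0.53. C4b rose by 0.72, and by 0.53 without KK/HlJ replicate 1, where it was not called (adjusted p = 0.0738).

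The interferon-inducible families split. Of 10 genes of the Ifi200 cluster, which encode nuclear and cytosolic DNA sensors, 0 rose and 5 fell (median -0.56), and 3 fell without KK/HlJ replicate 3. Shares over all genes were 4.55% and 2.83%. Ifi208 read 3.30, 3.62 and 3.56 against 3.85, 4.46 and 5.95, near the Y-linked level. Of 13 interferon-inducible GTPase genes, 3 rose and 0 fell: Gbp2b by 1.48, Gbp4 by 0.85 and Gbp9 by 0.37; without KK/HlJ replicate 3, 1 rose, and the adjusted p was 0.11 for Gbp4 and 0.0747 for Gbp9. Gbp2b read 7.80, 7.60 and 8.08 in KK/HlJ with a median of 7.32 in the others, and KK/HlJ lay within 1 log2 unit of 5 strains, so the low strains set the difference. Of 26 interferon-stimulated genes outside these families, 0 rose and 1 fell.

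In metabolism, 3 of 23 genes of glycolysis and gluconeogenesis rose and 3 fell. Fbp2, the muscle form of fructose-1,6-bisphosphatase, rose by 1.69 to 8.38, beside 8.25 in BALB/cJ and 8.15 in 129S1/SvlmJ. Its chromosomal neighbour Fbp1, the liver form, was called at 1.48 but read 5.61, 5.11 and 7.94, the highest value in the array with liver transcripts. Ldhb, the glucose transporter gene Slc2a1 (-0.34) and the phosphofructokinase gene Pfkp (-0.27) fell; Pfkp was not called without KK/HlJ replicate 2 (adjusted p = 0.0552) or 3 (0.0551). Of 28 insulin and leptin signalling genes, 1 rose and 2 fell (1 without KK/HlJ replicate 3), near the 4.55% and 2.83% of all genes. Igfbp3, a binding protein of insulin-like growth factors, read 7.70, 7.62 and 7.17 against 7.87, 8.70 and 9.26, below all others, and fell by 1.18 (SE 0.12, adjusted p = 3.45e-07). Igfbp2, a relative of it that is also on the alveolar type I list, rose by 0.82. Of the 12 alveolar type I genes, 1 rose (Igfbp2) and 1 fell (Rtkn2, by 0.52), with a median of -0.05 and 4 of 12 differences above 0. Gatm, the first enzyme of creatine synthesis, fell by 1.57, to a level shared with C57BL/6J (5.55) and MRL/MpJ (5.71).

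Of 23 antioxidant genes under Nrf2, 6 rose and 0 fell (median 0.098), beside 4.55% and 2.83% of all genes. Gpx3, the plasma glutathione peroxidase, led by 0.51. Of 17 matrix metalloproteinase and inhibitor genes, 1 rose and 3 fell. Mmp3, stromelysin, read 5.04, 4.99 and 4.97 against 5.65, 6.75 and 7.53 and fell by 1.68 (SE 0.10, adjusted p = 3.34e-11); MRL/MpJ came next at 5.92. Of 13 adipocyte genes, 0 rose and 0 fell, with a median of -0.53, and -0.44 without C3H/HeJ replicate 2, where 2 fell.

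Of 21 lung tumour candidate genes, 0 rose and 3 fell, beside 4.55% and 2.83% of all genes. Without KK/HlJ replicate 3, 1 fell, which is near the share of all genes. The receptor gene Erbb3 fell by 0.35, the airway transcription factor gene Sox2 by 0.39 and the cell cycle inhibitor gene Cdkn1a by 0.42. Cdkn1a was not called without KK/HlJ replicate 1, 2 or 3 (adjusted p = 0.0722, 0.0731 and 0.146), nor Sox2 without replicate 2 (0.0943) or 3 (0.226). Of 29 cell cycle genes, 2 rose and 1 fell, a share near that of all genes. Rrm1, a subunit of ribonucleotide reductase, rose by 0.63, with its KK/HlJ arrays (8.89, 8.83 and 8.93) above all others (highest 8.64).

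Of 14 T cell genes and 13 B cell genes, 0 rose and 0 fell, beside 4.55% and 2.83% of all genes. Of 17 NK cell and cytotoxic genes, 3 rose and 1 fell: the receptor genes Klra8, Klrb1c and Klrk1 rose by 0.89, 0.53 and 0.35 and the protease gene Gzma fell by 0.64. The KK/HlJ mean of Klrb1c, 3.77, lay within the Y-linked range. Klrb1c was not called without KK/HlJ replicate 1 (adjusted p = 0.148), Klrk1 without any 1 of the 3 KK/HlJ arrays (0.229, 0.104 and 0.0845), and Gzma without replicate 2 (0.118) or 3 (0.0783). Klra8 read 4.59, 4.48 and 3.56 in KK/HlJ beside a median of 2.96 and a highest value of 6.32 in the others; the C57BL/6J mean, 5.78, was above that of KK/HlJ. Of 15 endothelial genes, 3 rose and 0 fell, with Vwf first, followed by Aplnr (0.32) and Plvap (0.27). Neither Aplnr nor Plvap was called without KK/HlJ replicate 1 (adjusted p = 0.0916 and 0.119); Aplnr was also lost without replicate 3 (0.102) and Plvap without replicate 2 (0.0967). Of 14 smooth muscle and pericyte genes, 0 rose and 2 fell, Actg2 by 0.60 and Cnn1 by 0.44, the smooth muscle forms of actin and calponin. Of 19 fibroblast and matrix genes, 1 rose, the proteoglycan gene Lum by 0.79, and 3 fell, Mfap4 and Eln by 0.37 and Col3a1 by 0.30; 1 fell without KK/HlJ replicate 3. Lum was not called without KK/HlJ replicate 1 (adjusted p = 0.0684), and neither Eln (0.111 and 0.255) nor Col3a1 (0.097 and 0.0893) without replicate 2 or 3.

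Among 40 chemokine and receptor genes, 4 rose and 4 fell, beside 4.55% and 2.83% of all genes. Without KK/HlJ replicate 3, 3 rose and 0 fell. Cxcr1, a receptor for neutrophil-attracting chemokines, read 7.61, 7.33 and 7.66 in KK/HlJ. It was shared with C3H/HeJ (7.71) and MRL/MpJ (7.72), and the other 6 strains lay at 5.80 to 6.47. Ccl9 fell by 0.47, with 6.45, 6.37 and 6.40 in KK/HlJ below all others (lowest 6.54), but was not called without replicate 2 (adjusted p = 0.0817) or 3 (0.0545). The alarmin gene Il33 rose by 0.52, the only called gene of 17 for eosinophils and type 2 immunity, with an adjusted p of 0.0545 without replicate 2.

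Iglv2, an immunoglobulin light chain segment, read 3.48, 3.45 and 2.75 in KK/HlJ against 4.45, 5.93 and 7.83 and fell by 2.72 (SE 0.50, adjusted p = 0.000811). Igkv1-135 read 7.05, 5.63 and 6.44, with a lowest value of 7.06 elsewhere, and was not called without replicate 2 (adjusted p = 0.0801). Clec12b, a C-type lectin receptor of myeloid cells, fell by 1.47, and 129S1/SvlmJ stood 0.36 above KK/HlJ. Gdpd2, of the same phosphodiesterase family as Gdpd3, fell by 1.39, to 5.94, 5.95 and 5.82 against 6.52, 7.19 and 8.03. The 4 strains C57BL/6J, C57L/J, DBA/2J and 129S1/SvlmJ were at 7.60 to 7.96 for Gdpd2, and the other 4 at 6.59 to 6.81.

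Some calls lay next to each other in the gene order of the reference. With a minimum difference of 1, the runs were Ppbp and Pf4 on chromosome 5, Trim12a and Trim34b on chromosome 7, Fbp2 and Fbp1 on chromosome 13, Mettl7a3 and Methig1 on chromosome 15, and H2-T23 and H2-T22 on chromosome 17. Without KK/HlJ replicate 3, Pf4 (0.87) and Fbp1 (0.62) were below that minimum, so their pairs with Ppbp and Fbp2 were no longer runs. Trim12a rose by 4.82 and Trim34b fell by 2.12, and both levels were shared with C57BL/6J. Mettl7a3 fell by 1.24 and Methig1 rose by 1.44, and BALB/cJ shared both levels to within 1 log2 unit; these are related genes whose signals the probes may not separate. By chromosome, the share of genes called was highest on chromosome 3, 1.16%, followed by 0.961% on chromosome 6 and 0.931% on chromosome 17, beside 0.455% of all named genes. These shares hold for all arrays and were not counted again without KK/HlJ replicate 3, so the calls that rest on that array are included.

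With the adjusted p alone as the rule, 6 runs of at least 4 neighbouring genes were found. The direction was the same throughout in 2 of them. On chromosome 5, Gbp9, Gbp4, Gbp11 and Lrrc8b rose by 0.37, 0.85, 0.76 and 0.23. Gbp9 and Gbp4 were not called without KK/HlJ replicate 3, as given above, so this run rests on that array. The runs were found with all arrays and were not searched for again without it. On chromosome 2, Fjx1, Pamr1, Slc1a2 and Cd44 rose by 0.62, 1.00, 0.54 and 0.28. The run around Slc37a1 on chromosome 17 was mixed: Rsph1, a component of ciliary radial spokes, rose by 0.97, while Ubash3a and Pde9a fell by 0.32 and 0.28. The longest run, on chromosome 2, held 5 genes, of which Ankrd63 rose by 1.55 and Pak6 fell by 0.77.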

How the data were processed

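Lung RNA of 27 arrays was analysed, 3 per strain. The deposited values are log2 signals of 21225 probe sets, summarised by the authors with affy (version not given), per the submitters' processing notes. How arrays were normalized is not given in the sources used; values ran from 1.78 to 13.35, from which the log2 scale was inferred. Platform annotation named 20239 probe sets, all with 1 symbol and matched to RefSeq by gene ID; the 986 unnamed were not tested.

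With R 4.3.3 and limma 3.58.1, lmFit took 1 mean per strain over the 27 arrays, then eBayes. The contrast was KK/HlJ minus the mean of the other 8 strain means, with Benjamini-Hochberg adjustment over all named genes, and a call needed an adjusted p below 0.05 with a log2 difference of 1 or more in either direction. A further 8 contrasts set KK/HlJ against each strain. The fit was tested on simulated data. List members are said to have risen or fallen when the adjusted p was below 0.05, whatever the size. Values after "against" are the lowest, median and highest of the 24 other arrays. The Y-linked genes served as the background level.

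Members and lists were chosen with earlier results of these data known. Named genes come from the 20 largest differences in each direction, genes differing from each strain and neighbouring calls. Up to 6 per list by p were added, and those said to be picked later. Some genes that meet these rules are not described above, such as Gm10288 (difference -2.36) and Pcdhgb5 (1.86). The remaining platelet genes are named as well. RefSeq's gene order on GRCm38.p6 gave neighbours; coordinates other than promoter windows were not used. The labels name separate mice per strain, so p-values measure the spread between mice. Alternatives covered scaling, filters, priors, weights, a replicate block, other minima, single arrays and strains left out, and the strain as the unit.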

Additional observations from a re-analysis of the deposited data

Results flagged for a closer look

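Among the 986 probe sets with no gene symbol, which entered no comparison above, 3 were higher and 4 lower in KK/HlJ under the same rule when all probe sets were fitted together. That is 0.71% of them, beside 0.455% of the named genes in the same fit. Their genes are not named here.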

How the results depend on the processing

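The counts of 61 higher genes, 31 lower genes and 16 genes that differed from each strain depended on the minimum difference and on the unit of the test. With a minimum of 0.5 they were 264, 161 and 53, with 1.5 they were 23, 16 and 8, and with none 921, 573 and 107. With the strain as the unit 16 genes were higher and 8 lower; 45 genes passed with no minimum and 1004 had an unadjusted p under 0.05. With KK/HlJ replicate 3 left out as well, an alternative chosen after seeing the data, 12 were higher and 9 lower. Of the 24 calls of the strain-unit fit, 17 remained. In that alternative 30 genes passed with no minimum and 1770 had an unadjusted p under 0.05. Leaving out each array in turn gave 59 to 79 higher, 30 to 34 lower and 15 to 20 that differed from each strain. Without C3H/HeJ replicate 2 and KK/HlJ replicate 3 together, also chosen later, the counts were 64, 35 and 18. Quantile normalization gave 57, 34 and 16, and median centring 57, 36 and 16; they moved the median of all genes from 0.0096 to -0.0054 and -0.0227. With dim probe sets left out the counts were 47, 24 and 13, and without the strain C57BL/6J 61, 35 and 24. Of 202 genes followed, 1 changed direction: Vnn3, at 0.0002 against the median of the other strain means. Of these 202, 40 lost the adjusted p threshold without KK/HlJ replicate 3, 34 without replicate 1, 46 without replicate 2, 3 without C3H/HeJ replicate 2, 29 with array weights and 179 with the strain as the unit; 33 lost it without at least 1 of the other strains. The cause was not tested. With the replicate number as a block (replicate block) the counts were 62, 31 and 16; same-numbered arrays correlated at -0.272 to 0.276 in their deviations from the strain means, so the numbers were not taken to pair mice. Signal near the Y-linked level limits how large a fall can be read.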
